A study of Mus musculus with 16 samples.

Results

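The p53 response genes are 33 mouse genes, Trp53 itself and genes known as its targets or feedback partners, out of 20972 genes with a named probe on the array. They were found by name, through the RefSeq accession of each probe, and they have 41 probes (25 genes with 1 probe and 8 with 2). The list was drawn up with earlier results of these data known, so its shares and medians beside all genes are description only. RNA came from mouse E14 embryonic stem cells, an established line grown with serum and LIF, a cytokine that keeps such cells undifferentiated. The cells were lipofected with a plasmid for EGFP or for 1 of 3 TALE constructs, Ptn(TALE)VP64, Ptn(TALE)DEL and Ptn(TALE)Delta, called VP64, DEL and Delta here. A TALE is a designed DNA-binding protein, and the labels name the same target, Ptn, for all 3 TALE constructs. VP64 is a strong transcriptional activation domain, DEL is an acidic peptide made to open chromatin, and the labels do not say what Delta carries. Cells of every group, the EGFP controls included, were sorted for eGFP 24 h after transfection and put back in culture until RNA was taken at 48 h. All 4 groups had therefore been lipofected, had made a fluorescent protein and had been sorted, and untransfected cells were not analysed here. Each group had 4 one-colour arrays, made from 2 biological and 2 technical replicates whose order the labels do not give, so p-values may measure technical spread in part.

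p53 is a transcription factor that DNA damage and other stresses stabilise, mainly by freeing it from MDM2, the ubiquitin ligase that marks it for degradation and that it also induces. Its targets stop the cell cycle, place death receptors on the cell surface, open the mitochondrial route of apoptosis, and serve DNA repair and protection from oxidative stress. Mouse embryonic stem cells hold abundant p53, part of it in the cytoplasm, and are known to die or differentiate readily when it is activated. Because p53 is controlled largely as a protein, target mRNAs are the usual readout of its activity on an expression array.

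The promoters of Cdkn1a, Mdm2, Trp53 and Fas are shown because the first 3 are the target, the inhibitor and the gene that every p53 response is read by, and Fas is the member with the smallest p among the constructs. Each is the 250 bases before the gene's start, from RefSeq on GRCm38.p6, with matches to the p53 half-site consensus in capitals. Cdkn1a lies at chr17:29090729-29090978 on the plus strand, Mdm2 at chr10:117710759-117711008 on the minus strand, Trp53 at chr11:69580109-69580358 on the plus strand and Fas at chr19:34290409-34290658 on the plus strand.
Cdkn1a: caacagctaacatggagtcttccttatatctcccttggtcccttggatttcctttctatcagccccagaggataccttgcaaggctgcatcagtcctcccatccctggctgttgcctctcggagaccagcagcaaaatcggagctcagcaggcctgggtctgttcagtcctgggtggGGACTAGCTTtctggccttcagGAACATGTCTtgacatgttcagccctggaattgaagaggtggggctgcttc
Mdm2: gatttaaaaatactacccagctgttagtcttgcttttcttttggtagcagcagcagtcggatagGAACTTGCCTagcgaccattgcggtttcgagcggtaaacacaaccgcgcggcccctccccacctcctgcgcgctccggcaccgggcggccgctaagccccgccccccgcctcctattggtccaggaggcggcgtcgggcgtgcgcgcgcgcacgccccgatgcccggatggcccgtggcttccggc
Trp53: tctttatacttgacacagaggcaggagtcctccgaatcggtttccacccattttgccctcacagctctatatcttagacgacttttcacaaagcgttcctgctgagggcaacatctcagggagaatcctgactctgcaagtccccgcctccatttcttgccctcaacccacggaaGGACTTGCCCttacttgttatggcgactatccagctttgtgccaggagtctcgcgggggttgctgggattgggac
Fas: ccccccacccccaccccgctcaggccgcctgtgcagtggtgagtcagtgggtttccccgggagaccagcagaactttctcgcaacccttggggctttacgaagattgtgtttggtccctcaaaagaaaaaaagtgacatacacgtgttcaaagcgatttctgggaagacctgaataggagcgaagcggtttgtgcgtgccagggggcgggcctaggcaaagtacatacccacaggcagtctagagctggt
The half-site consensus has 10 letters and reads the same on both strands. In the Cdkn1a entry shown the matches start 73 and 51 bases before the gene's start, in Mdm2 186 bases and in Trp53 75 bases before it. Cdkn1a has a second entry, at chr17:29093519-29093768, with no match. The Fas window has none. RefSeq promoter entries were found for 25 of the 33 members (34 entries), and 11 of these entries (32.4%) held at least 1 half-site, beside 7.1% of all 32851 entries. The members with a match were Trp53, Mdm2, Ccng1, Pml, Cdkn1a, Bax, Aen, Ei24, Polk, Rps27l and Sesn1. A pair of half-sites at most 13 bases apart occurred in 1 member entry, that of Cdkn1a, and in 0.06% of all entries. A match is a run of letters only, and nothing was measured at these sites.

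A level is the log2 of a probe's processed signal relative to the array's 75th percentile, and a difference of 1 is a doubling. The 75th percentile signal ranged from 209.3 to 1253 over the 16 arrays, and 27.1 to 43.8% of spots were well above background. Copies of the same probe on an array varied by 52.4 to 86.5% (coefficient of variation) on slide 1 (replicates 1 and 2 of every group) and by 12.2 to 39.3% on slide 2 (replicates 3 and 4). On slide 1, 13 to 39.5% of spots lay in patches that shifted together by over 1 log2 unit, beside 1.32 to 15% on slide 2. A second set of levels, called patch-corrected, has that local shift removed and the spots in such patches left out; it pulls arrays toward their common median, so part of their likeness is built in. Each construct had its own column of the slides, so construct and slide column cannot be told apart. All 14 embryonic stem cell markers were above background on every array. Their median difference between the TALE mean and EGFP was -0.76 with 11 of 14 lower (all genes 0.15), and -0.32 with 10 of the 11 measured lower after patch correction (all genes 0.01), and the part of this shift in the results below was not tested. Of 6 blood markers with a probe, 1 or 2 were above background in each group and Ptprc in none. The summed level of 12 interferon response genes ranged from 2.32 to 2.97 in EGFP, 2.07 to 3.65 in VP64, 2.75 to 3.62 in DEL and 3.02 to 5.42 in Delta. In bulk RNA, fewer cells of a type and less RNA per cell cannot be told apart.

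Most p53 response genes had a higher mean in the TALE groups than in EGFP, though no member passed the adjusted test with replicates averaged. In the mean of the 3 TALE groups minus EGFP the smallest p on uncorrected levels were those of Perp (1.55 ± 0.49 on the log2 scale), Zmat3 (2.20 ± 0.77), Sesn1 and Cdkn1a (1.16 ± 0.53). On patch-corrected levels, an alternative setting, they were those of Perp (1.10 ± 0.25), Plk2 (1.64 ± 0.41), Apaf1 (0.74 ± 0.21) and Cdkn1a (0.67 ± 0.24), while Zmat3 was at 0.09 ± 0.26. The Plk2 value leaves out low DEL arrays. Fas was not well above background in EGFP, and with EGFP set at its background bound the VP64 mean was 4.02-fold higher after patch correction. Before correction it was 3.61-fold higher. On both sets of levels 1 VP64 array lay within the EGFP range, and the averaged limma test gave an adjusted p of 0.361 after correction. Trp53 itself was at 0.12 ± 0.56 uncorrected and at -0.57 ± 0.33 patch-corrected, a value that rests on 1 EGFP array, and Bax had lower means than EGFP in all 3 groups. Of 31 members that could be tested, 20 had a mean above EGFP in VP64 (64.5%, beside 55.4% of all genes), 25 in DEL (80.6%, beside 64.5%) and 26 in Delta (83.9%, beside 62.2%). In the mean of the 3 TALE groups 25 were above EGFP (59.1% of all genes), and after patch correction 19 of 26 (51.6%). The median difference of the members was 0.29 in VP64, 0.79 in DEL and 0.87 in Delta, where the medians of all genes were 0.12, 0.26 and 0.29. On patch-corrected levels, which left 26 members, 15 were above EGFP in VP64 (57.7%, all genes 49.9%), 20 in DEL (76.9%, 53.2%) and 19 in Delta (73.1%, 53.1%). Their medians were then 0.17, 0.40 and 0.39, beside 0.00, 0.03 and 0.03 for all genes. The 3 differences share the same 4 EGFP arrays, so a low EGFP value lifts all of them together.

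**Figure D1:**
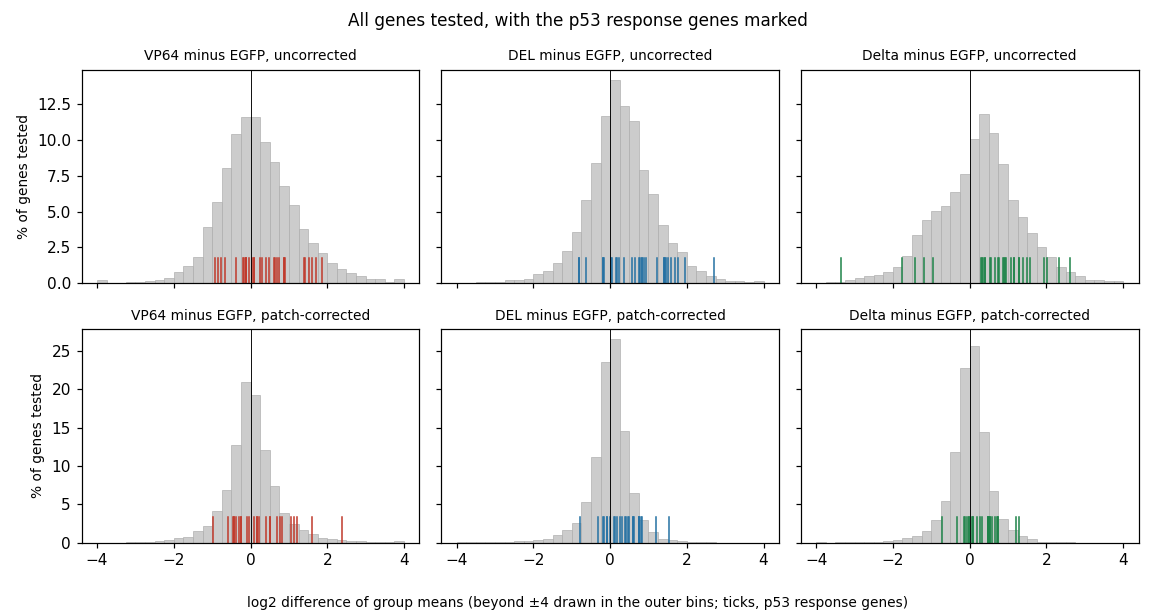
Histograms of the log2 difference of every tested gene from EGFP, for each TALE construct and for uncorrected and patch-corrected levels, with ticks marking the p53 response genes. The members' ticks lie mostly right of 0, with medians of 0.29, 0.79 and 0.87 (VP64, DEL, Delta) before and 0.17, 0.40 and 0.39 after patch correction; values beyond 4 in either direction are counted in the outer bins.

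No member passed the test on uncorrected levels. With arrays averaged to 2 samples a group in each of the 3 possible pairings, and the largest limma p of the 3 adjusted over all genes, 0 of 31 members and 0.00% of all genes had an adjusted p under 0.05 in any of the 8 comparisons (each TALE group and their mean against EGFP, the 3 pairs of TALE groups, and any difference among them). At an unadjusted p under 0.05, 1 member was higher in VP64 (Fas; 3.12% of all genes), 2 in DEL (Perp and Zmat3; 2.50%), 3 in Delta (Perp, Sesn1 and Zmat3; 3.77%) and 2 in the mean of the TALE groups (Perp and Zmat3; 4.84%). At that threshold none was lower (0.770%, 0.188%, 0.228% and 0.236% of all genes), and none differed among the TALE groups by the F test (1.45%). Counted by arrays, no EGFP array overlapped the VP64 arrays for 1 of 24 members (Perp; 6.27% of all genes), the DEL arrays for 4 of 27 (Bbc3, Cdkn1a, Perp and Zmat3; 5.37%) or the Delta arrays for 3 of 28 (Cdkn1a, Perp and Zmat3; 5.87%), with EGFP the lower group each time. No member was separated the other way (1.92%, 0.305% and 0.238% of all genes, and 0.0407% for all TALE arrays).

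Patch-corrected levels in the same averaged test also gave 0 of 26 members at an adjusted p under 0.05 in all 8 comparisons, beside 0.0271% of all genes for VP64 and 0.00% for DEL, Delta and the TALE mean, and 0.00904% for VP64 against DEL, for VP64 against Delta and for the F test. At an unadjusted p under 0.05, 7 of 26 members (26.9%) were higher in VP64, where 5.20% of all genes were: Apaf1, Btg2, Cdkn1a, Fas, Perp, Phlda3 and Plk2. The same 7 were higher in the TALE mean (3.62% of all genes). Apaf1, Perp and Plk2 were higher in DEL (3 of 26, beside 1.37% of genes) and in Delta (1.65%). No member was lower at that threshold, where 2.54%, 0.868%, 0.940% and 1.63% of all genes were in VP64, DEL, Delta and the TALE mean. Arrays did not overlap, with EGFP lower, for 4 of 14 members in VP64 (Btg2, Perp, Plk2 and Polk; 10.7% of all genes), 2 of 18 in DEL (Apaf1 and Perp; 4.69%) and 4 of 15 in Delta (Apaf1, Btg2, Perp and Plk2; 5.64%). With EGFP higher, they did not overlap for Pml in VP64 (1 of 14; 6.66%) and Bax in DEL (1 of 18; 2.11%), and for no member in Delta (2.93%) or for all TALE arrays (0.632%). When the 16 patch-corrected arrays entered one by one, with slide as a term, Fas and Perp passed in VP64 (3.12% of all genes called) and Perp in the TALE mean (0.877%), while no member passed in DEL (0.0181%), in Delta (0.0271%), between TALE groups (0.633%, 0.615% and 0.00%) or among them (0.407%). That fit counts technical repeats as independent, so its p-values are too small.

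**Figure D2:**
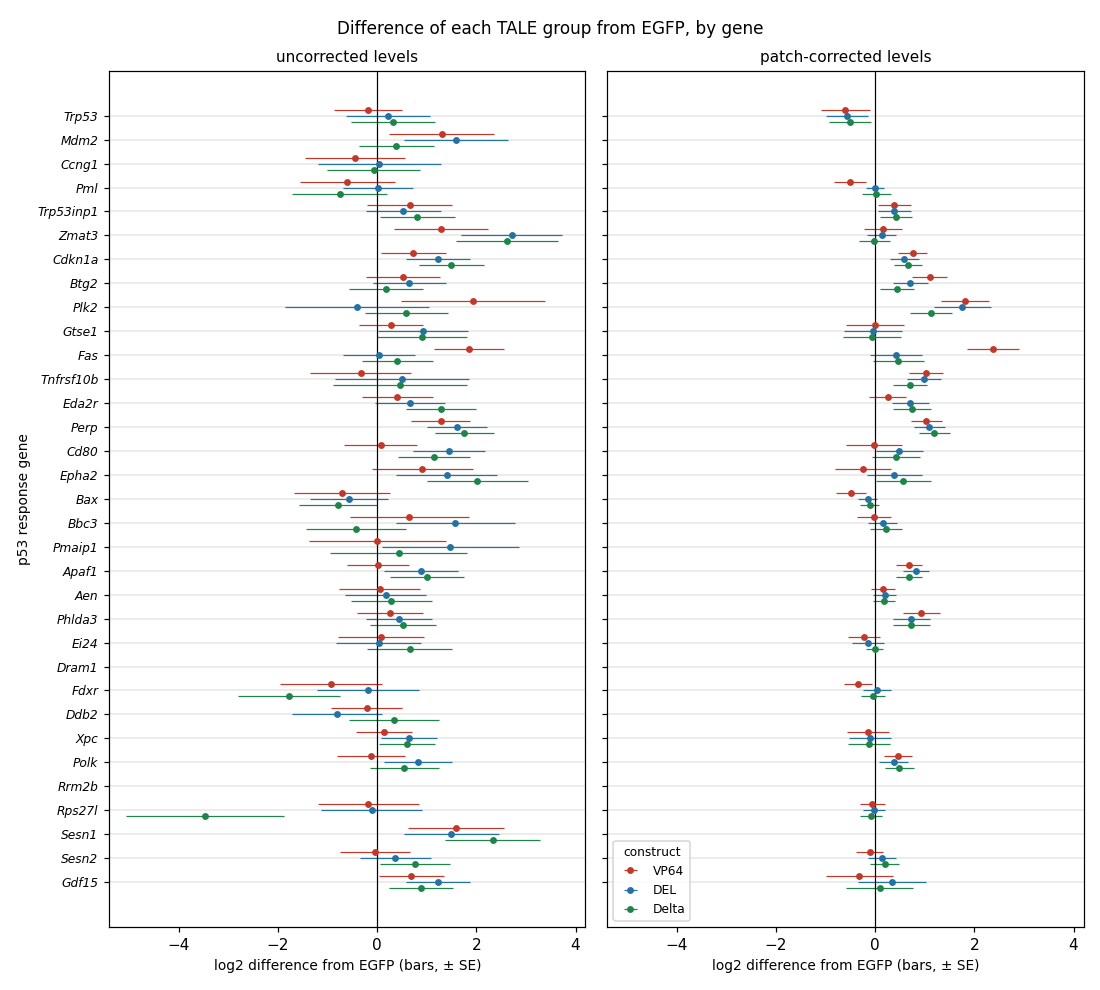
Log2 difference from EGFP with its standard error for each p53 response gene in VP64, DEL and Delta, 31 members on uncorrected levels (left) and 26 on patch-corrected levels (right), grouped by role. Perp lies between 1.28 and 1.76 for all 3 constructs on the left and between 1.03 and 1.19 on the right, and Fas is higher in VP64 than in DEL and Delta in both panels. Values are those of the fit on averaged samples.

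Trp53 and the genes that regulate it or are its feedback targets came first by role. Uncorrected Trp53 levels were 3.32, 4.77, 0.17 and 2.35 on the EGFP arrays (2.65 ± 1.93, SD, n = 4). They were 2.38 and 2.57 on the VP64 arrays with an unmarked spot (n = 2), 3.20, 3.06, 2.21 and 3.04 in DEL (2.87 ± 0.45, n = 4), and 3.63, 2.39, 2.56 and 3.32 in Delta (2.98 ± 0.60, n = 4). The EGFP arrays alone spanned more than all TALE arrays together. Trp53 has 2 spots per array, and each EGFP level is that of the 1 unmarked spot, as on some DEL and Delta arrays. With marked spots included the EGFP medians were 2.05, 4.16, 1.28 and 1.98. Spread between spots and spread between EGFP arrays therefore cannot be told apart here. The TALE mean differed from EGFP by 0.12 ± 0.56 (SE; 95% interval -1.14 to 1.38; limma adjusted p = 1.00). After patch correction the EGFP values were 2.64, 5.08 and 2.71 and all 10 TALE arrays lay between 2.35 and 2.95, and the difference became -0.57 ± 0.33 (interval -1.48 to 0.33, adjusted p = 1.00), a lower mean that rests on the EGFP array at 5.08.

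Mdm2 is both a p53 target and its inhibitor. Its 1 spot was readable on 1 EGFP array only, at 2.74. VP64 read 4.64, 4.01 and 3.75 (4.13 ± 0.46, n = 3), DEL 4.83, 4.35 and 3.78 (4.32 ± 0.52, n = 3), and Delta 5.34, 2.53 and 3.11 (3.66 ± 1.48, n = 3). All VP64 and DEL values lay above the EGFP value and Delta values on both sides of it. The differences were 1.30 ± 1.05, 1.59 ± 1.05 and 0.39 ± 0.75 (limma, each adjusted p = 1.00), and patch-corrected levels left too few arrays to fit.

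Zmat3 encodes an RNA-binding protein induced by p53. Its uncorrected levels were -0.02, 1.00, -3.67 and 2.05 in EGFP (-0.16 ± 2.49, n = 4), -0.14, 2.34 and 2.46 in VP64 (1.55 ± 1.47, n = 3), 2.71, 2.85, 2.42 and 2.23 in DEL (2.55 ± 0.28, n = 4), and 3.19, 2.07, 2.33 and 2.24 in Delta (2.46 ± 0.50, n = 4). Every DEL and Delta array was above every EGFP array, and the EGFP arrays spread most. The TALE mean differed by 2.20 ± 0.77 (interval 0.37 to 4.04, limma adjusted p = 0.952). After patch correction the EGFP arrays kept were at 1.88 and 2.51, the groups overlapped fully, and the difference was 0.09 ± 0.26 (interval -0.63 to 0.81, adjusted p = 1.00).

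The other feedback members overlapped between groups. Ccng1, a cyclin that acts on the MDM2 loop, had mean uncorrected levels that differed from EGFP by -0.67 in VP64, -0.17 in DEL and 0.52 in Delta. Pml, which organises nuclear bodies that hold p53, gave -0.85, 0.15 and -1.43, and its second probe gave 0.67 in Delta. Trp53inp1, which promotes p53-dependent death, was above EGFP by 0.88, 0.57 and 1.28, and by 0.50, 0.39 and 0.54 after patch correction.

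Among the arrest genes, Cdkn1a had 10 copies of its probe on each array. Cdkn1a encodes p21, the inhibitor of cyclin-dependent kinases through which p53 stops the cycle. Uncorrected levels were -0.16, -0.10, 1.03 and 0.18 in EGFP (0.24 ± 0.55, n = 4), 0.97, -0.10, 1.62 and 1.37 in VP64 (0.97 ± 0.76, n = 4), 1.86, 1.54, 1.06 and 1.43 in DEL (1.47 ± 0.33, n = 4), and 2.36, 1.55, 1.35 and 1.71 in Delta (1.74 ± 0.44, n = 4). DEL and Delta lay wholly above EGFP, and 1 VP64 array lay at the EGFP level. The differences were 0.73 ± 0.65, 1.23 ± 0.65 and 1.50 ± 0.65 (limma adjusted p = 1.00 in VP64 and DEL and adjusted p = 0.980 in Delta), and 1.16 ± 0.53 for the TALE mean (interval -0.10 to 2.41, adjusted p = 1.00).

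The spots of the Cdkn1a probe show how far an array can be trusted for it. The SD between the spots of an array was 0.07 to 2.23 on slide 1 and 0.08 to 0.19 on slide 2, with 4 to 10 unmarked spots per array. Within slide 2 the differences from EGFP were 0.89 in VP64, 0.64 in DEL and 0.92 in Delta, and within slide 1 they were 0.57, 1.83 and 2.09. After patch correction the EGFP levels were 0.72, 0.08, 1.14 and 0.63 (0.64 ± 0.44), VP64 1.63, 0.96, 1.61 and 1.40 (1.40 ± 0.31), DEL 1.34, 1.13, 1.21 and 1.25 (1.23 ± 0.09), and Delta 1.46, 1.01, 1.34 and 1.40 (1.30 ± 0.20), n = 4 each. The groups then overlapped through EGFP replicate 3 at 1.14, and the 3 constructs were close to one another. The TALE mean was 0.67 ± 0.24 above EGFP, or 1.59-fold (interval 0.10 to 1.24, limma adjusted p = 0.886), with 0.76 in VP64, 0.59 in DEL and 0.66 in Delta. The second Cdkn1a probe, above background on 8 arrays, gave 1.95, 0.47 and 0.72.

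**Figure D3:**
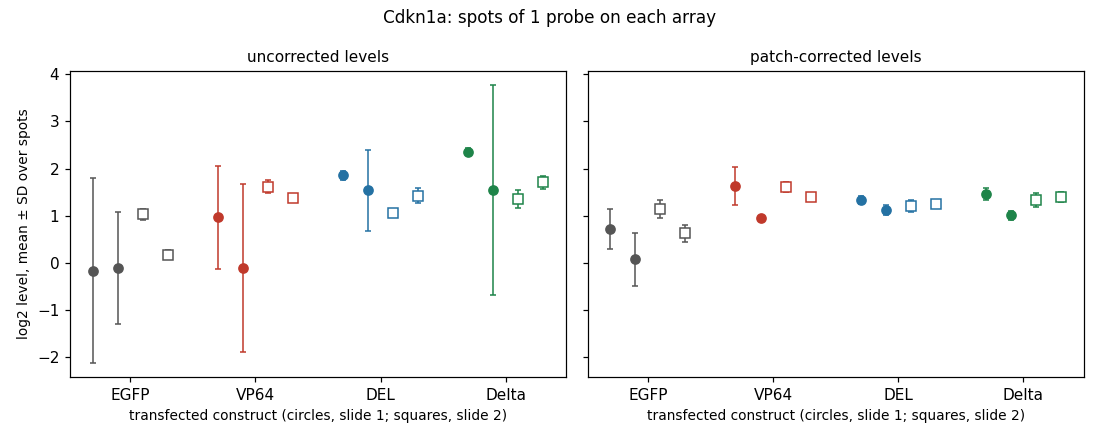
Mean and SD of the unmarked spots of the Cdkn1a probe on each of the 16 arrays, as log2 levels before and after patch correction, grouped by construct, with the slide marked. Spots of an array scatter by up to 2.23 on slide 1 and by at most 0.19 on slide 2, and the patch-corrected DEL and Delta means are 1.23 and 1.30, beside 0.64 in EGFP.

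Plk2, a kinase induced by p53, had a readable spot on 14 of 16 arrays. Its uncorrected levels were 1.53, -1.56 and 0.24 in EGFP (0.07 ± 1.55, n = 3), 0.28, 2.37 and 1.86 in VP64 (1.50 ± 1.09, n = 3), -2.54, 1.91, 1.93 and -4.28 in DEL (-0.74 ± 3.16, n = 4), and -0.14, 1.23, 1.56 and 1.45 in Delta (1.03 ± 0.79, n = 4). All groups overlapped, and DEL was above background on 2 arrays. After patch correction EGFP read 0.60, -0.87 and 0.43 (0.05 ± 0.81, n = 3), VP64 1.18, 2.24 and 1.55 (1.66 ± 0.54, n = 3), DEL 1.34 and 1.81 (n = 2), and Delta 1.23, 1.52 and 1.00 (1.25 ± 0.26, n = 3). Every remaining TALE array was then above every EGFP array, with none left at the low uncorrected DEL levels of -2.54 and -4.28. The fitted differences were 1.81 ± 0.48 in VP64, 1.76 ± 0.58 in DEL and 1.13 ± 0.42 in Delta (limma adjusted p = 0.444 in VP64 and adjusted p = 1.00 in DEL and Delta).

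Btg2, an antiproliferative p53 target, was singled out after its values were seen. Its uncorrected arrays overlapped between EGFP (0.66 to 1.87) and every TALE group, with differences of 0.52, 0.65 and 0.18 (each ± 0.74). Patch-corrected levels were 1.17, 1.00 and 0.88 in EGFP (1.01 ± 0.15, n = 3), 2.30, 1.98, 2.06 and 2.27 in VP64 (2.15 ± 0.16, n = 4), 1.82, 2.80, 0.98 and 1.45 in DEL (1.76 ± 0.77, n = 4), and 1.41, 1.75 and 1.40 in Delta (n = 3). On these levels VP64 and Delta lay wholly above EGFP and DEL did not. The differences were 1.10 ± 0.35 in VP64 (interval 0.21 to 1.99), 0.71 in DEL (-0.18 to 1.60) and 0.44 in Delta (-0.45 to 1.33), with a limma adjusted p = 0.522 in VP64. Gtse1, which binds p53 and moves it out of the nucleus in human cells, had group means above EGFP by 0.08, 0.93 and 0.90 uncorrected, which became 0.23, -0.31 and -0.32 after patch correction.

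Perp, a membrane protein of desmosomes that is a p53 death target, was the 1 member whose TALE arrays all lay above the controls before patch correction. Its uncorrected levels were 1.93, 3.35 and 2.74 in EGFP (2.67 ± 0.72, n = 3), 4.20, 4.46 and 3.91 in VP64 (4.19 ± 0.27, n = 3), 4.88, 4.24, 4.16 and 4.52 in DEL (4.45 ± 0.32, n = 4), and 5.43, 3.83, 4.45 and 4.71 in Delta (4.60 ± 0.66, n = 4). All 11 readable TALE arrays were above all 3 readable EGFP arrays, as for 1 of 26 members and 1.14% of all genes. The differences were 1.28 ± 0.60 in VP64, 1.61 ± 0.60 in DEL and 1.76 ± 0.60 in Delta (intervals -0.09 to 2.64, 0.24 to 2.97 and 0.40 to 3.12), and 1.55 ± 0.49 for the TALE mean (0.43 to 2.66, limma adjusted p = 0.944).

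Patch-corrected Perp levels were tighter: 2.80, 3.46 and 2.92 in EGFP (3.06 ± 0.35, n = 3), 4.47, 4.48 and 3.91 in VP64 (4.28 ± 0.32, n = 3), 4.22, 4.33, 4.16 and 4.31 in DEL (4.25 ± 0.08, n = 4), and 4.34, 4.22, 4.45 and 4.38 in Delta (4.35 ± 0.10, n = 4). The groups again did not overlap, as for 2 of 14 members (Perp and Apaf1) and 1.75% of all genes. The averaged test gave 1.03 ± 0.31, 1.09 and 1.19 for VP64, DEL and Delta, and 1.10 ± 0.25 for the TALE mean (interval 0.50 to 1.70, limma adjusted p = 0.769). With arrays unaveraged the TALE mean was 1.24 ± 0.17 above EGFP (adjusted p = 0.0145) and VP64 1.22 ± 0.21 (adjusted p = 0.0131). Without EGFP replicate 4 the first adjusted p was 0.0585, and without VP64 replicate 1 or 3 the second was 0.0643 or 0.0623. Within slide 2 alone the uncorrected differences were 1.14, 1.29 and 1.53. Perp has 1 spot per array, so no copies check it.

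Fas, the death receptor for Fas ligand, was the member with the smallest p in the test among the constructs. Its uncorrected levels were -3.37, -2.53, -4.03 and -4.20 in EGFP (-3.54 ± 0.76, n = 4, none above background), -1.41, -3.09, -0.53 and -1.71 in VP64 (-1.68 ± 1.06, n = 4, all above background), -2.32, -4.58, -3.16 and -3.93 in DEL (-3.50 ± 0.97, n = 4), and -3.23, -3.50, -3.00 and -2.76 in Delta (-3.12 ± 0.32, n = 4). VP64 replicate 2 lay among the other groups' arrays and the other VP64 arrays above them all. With EGFP, which was not well above background, set at its bound, the VP64 mean was 3.61-fold higher (limma adjusted p = 1.00). DEL was above background on 1 array and Delta on 2. Without its VP64 arrays Fas would thus have failed the filter of 4 arrays above background. It was tested because of the group in which it was high, and its p-values, intervals and fold values carry that selection.

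On patch-corrected levels Fas read -4.03, -2.28, -4.16 and -4.20 in EGFP, -0.50, -2.36, -0.62 and -1.66 in VP64 (-1.29 ± 0.88), -3.01, -3.63, -3.09 and -3.28 in DEL (-3.25 ± 0.27), and -2.83, -3.35, -3.34 and -3.27 in Delta (-3.20 ± 0.25), n = 4 each. VP64 replicate 2 overlapped EGFP replicate 2 and stood above all DEL and Delta arrays. With EGFP set in the same way the VP64 mean was 4.02-fold higher, and the averaged limma test gave an adjusted p of 0.361. With arrays unaveraged VP64 passed against EGFP (limma adjusted p = 0.0149, and 0.0525 without VP64 replicate 3) and differed from DEL and Delta by 1.97 ± 0.45 and 1.91 ± 0.45 (adjusted p = 0.0692 and 0.0729). The summed level of 12 fibroblast markers was also higher in VP64, at 3.59 to 6.23, than in EGFP (1.45 to 2.99), DEL (1.77 to 3.32) or Delta (1.51 to 3.62), with 2 of 12 markers above background on all arrays of VP64 and of Delta, 1 in DEL and 0 in EGFP, and Col5a2, Pdgfrb and Postn on none in any group. Its part in the Fas result was not tested.

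Cd80, a co-stimulatory surface protein reported as a p53 target, had levels of -2.48, -1.33, -0.87 and -2.73 in EGFP (-1.85 ± 0.89, n = 4), -2.47, -1.16 and -2.31 in VP64 (-1.98 ± 0.72, n = 3), 0.24, -0.07, -0.59 and -1.18 in DEL (-0.40 ± 0.62, n = 4), and 0.14, -1.45, -0.51 and -0.98 in Delta (-0.70 ± 0.68, n = 4). EGFP and DEL overlapped, and VP64 sat at the EGFP level. The fitted differences were 0.07 ± 0.73 (-0.13 between group means), 1.45 ± 0.73 and 1.15 ± 0.73 (interval -0.18 to 3.08 in DEL; limma F test among the TALE groups adjusted p = 1.00). They shrank to 0.49 ± 0.48 in DEL and 0.42 ± 0.48 in Delta after patch correction, and the second Cd80 probe, above background on 8 arrays, gave -0.38 in DEL before correction.

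The remaining surface members also had means above EGFP in DEL and Delta. Patch-corrected differences between the VP64, DEL and Delta means and the EGFP mean were 0.82, 0.76 and 0.48 for Tnfrsf10b, the mouse TRAIL receptor, 0.40, 0.75 and 0.74 for Eda2r, the ectodysplasin A2 receptor, and -0.30, 0.50 and 0.58 for Epha2, an ephrin receptor. All 6 surface members thus had a patch-corrected mean above EGFP in DEL and in Delta, with median differences of 0.68 and 0.56, beside 0.03 for all genes in each, but Cd80 in DEL turned to -0.03 with a patch limit of 0.5.

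**Figure D4:**
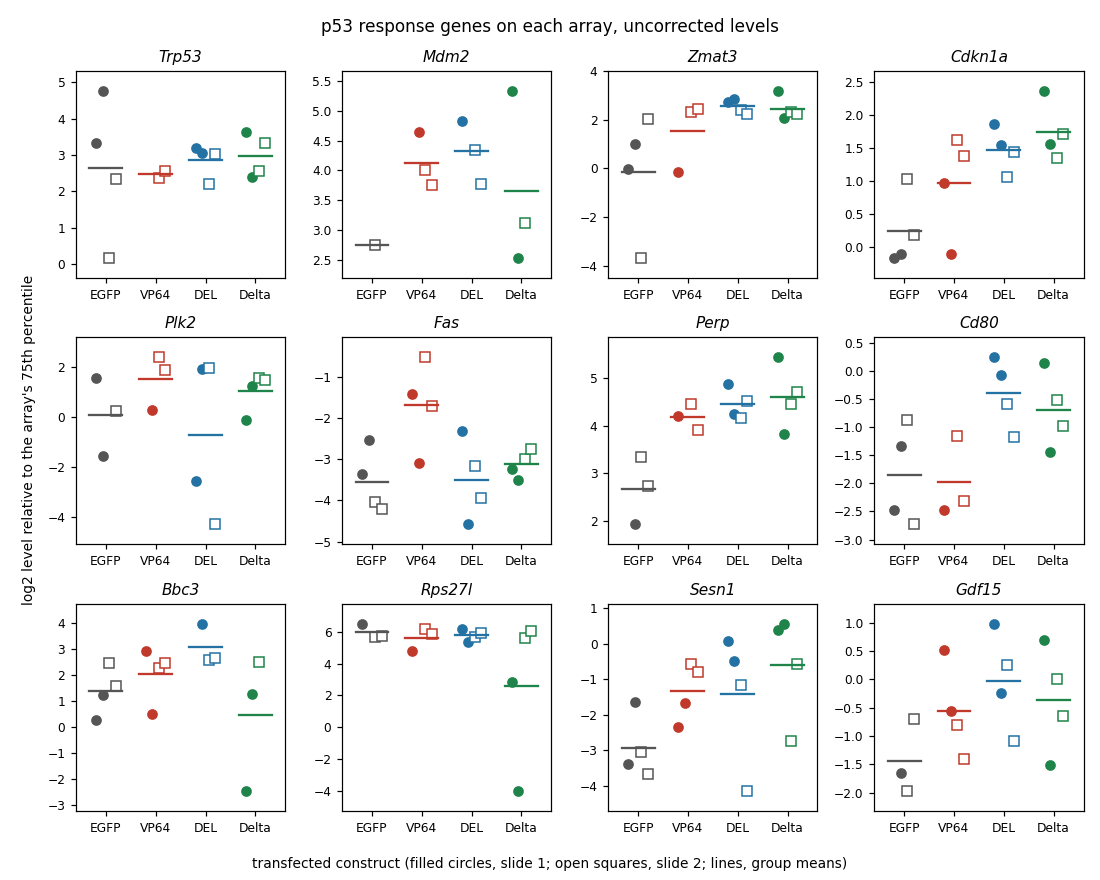
Uncorrected log2 levels of the 12 members chosen by rule, 1 point per array (filled circles slide 1, open squares slide 2) and a line at each group mean. All Perp values of the TALE groups lie above the highest EGFP value of 3.35, Trp53 overlaps across groups, and Fas is highest in VP64.

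Genes of the mitochondrial and cytosolic death route had median uncorrected differences of 0.07, 0.46 and 0.48 in VP64, DEL and Delta, beside 0.66, 1.42 and 1.34 for the surface members. Apaf1 forms the apoptosome that activates caspase 9, and it was singled out after its values were seen. Its uncorrected fitted differences were 0.02 ± 0.62 (-0.11 between group means), 0.89 ± 0.75 and 1.01 ± 0.75. Its patch-corrected levels were 1.20, 0.54, 1.04 and 0.61 in EGFP (0.85 ± 0.32, n = 4), 1.61 and 1.46 in VP64 (n = 2), 1.80, 1.60, 1.73 and 1.61 in DEL (1.68 ± 0.09, n = 4), and 1.67, 1.44 and 1.52 in Delta (1.55 ± 0.12, n = 3). Every TALE array kept was above every EGFP array. The differences were 0.69 ± 0.26, 0.83 ± 0.26 and 0.69 ± 0.26, and 0.74 ± 0.21 for the TALE mean (interval 0.23 to 1.24, limma adjusted p = 0.780, and 0.0569 with arrays unaveraged).

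Phlda3, an inhibitor of the survival kinase AKT, was also singled out after its values were seen, with patch-corrected differences of 0.93 ± 0.37, 0.73 and 0.73 (intervals 0.05 to 1.81 in VP64 and -0.15 to 1.61 in DEL and Delta). Its EGFP arrays kept were 3.41 and 2.74 (n = 2), and VP64 read 4.26, 4.49 and 3.62, so the means rest on few arrays. Bbc3 encodes PUMA, a BH3-only activator of apoptosis. Its uncorrected levels were 0.26, 1.24, 2.46 and 1.57 in EGFP (1.38 ± 0.91), 2.91, 0.51, 2.27 and 2.45 in VP64 (2.03 ± 1.05), 3.95, 2.58 and 2.66 in DEL (3.06 ± 0.77, n = 3), and -2.46, 1.27 and 2.50 in Delta (0.44 ± 2.59, n = 3). DEL lay above EGFP on every readable array, and DEL differed from Delta by 2.33 ± 1.01 (limma F test among the TALE groups, adjusted p = 1.00). Patch-corrected differences from EGFP were -0.08, 0.31 and 0.27, with the low Delta array left out.

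Bax, the pore-forming effector, had lower means than EGFP in all 3 groups, by differences of -0.78, -0.64 and -1.18 uncorrected and -0.44, -0.18 and -0.13 patch-corrected. Pmaip1, which encodes NOXA, gave 0.48, 1.96 and 1.56 uncorrected and could not be fitted after patch correction. Aen, an apoptosis nuclease, Ei24, a membrane protein of the endoplasmic reticulum, and Fdxr, a mitochondrial reductase, had patch-corrected differences between -0.46 and 0.19. Dram1, an autophagy gene, was above background on 1 array and was not tested.

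The 5 members grouped under DNA repair and nucleotide supply, with Rps27l counted among them, were measured for 4. Their median uncorrected differences were -0.16, 0.31 and 0.44, beside 0.12, 0.26 and 0.29 for all genes. Rps27l, a ribosomal protein paralogue induced by p53, read 6.48, 5.68 and 5.72 in EGFP (5.96 ± 0.45, n = 3), 4.76, 6.14 and 5.82 in VP64 (5.57 ± 0.72, n = 3), 6.17, 5.37, 5.69 and 5.89 in DEL (5.78 ± 0.34, n = 4), and 2.82, -3.99, 5.62 and 6.01 in Delta (2.61 ± 4.62, n = 4). The 2 slide 1 arrays of Delta were far below every other array (-3.47 ± 1.60 against EGFP, interval -7.26 to 0.31, limma adjusted p = 0.980). Both lay in patches, and after correction the 4 group means were 5.73, 5.70, 5.65 and 5.59. Polk, a translesion polymerase, had patch-corrected differences of 0.50, 0.47 and 0.49. Its second probe, above background on 13 arrays, gave 0.12, 0.11 and 0.26. Uncorrected, the first Polk probe gave -0.12, 0.82 and 0.54 and the second 1.06, 1.04 and 1.46. Xpc, the damage sensor of nucleotide excision repair, gave 0.09, 0.11 and 0.09. Ddb2, another damage sensor, gave -0.19, -0.81 and 0.34 uncorrected, and Rrm2b, a ribonucleotide reductase subunit, was above background on no array.

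Sesn1, which encodes the stress protein sestrin 1, was above background on no EGFP array and on 3 arrays of each TALE group. Sesn1 thus met the filter of 4 arrays above background through TALE arrays alone. Its uncorrected levels were -3.37, -1.65, -3.04 and -3.66 in EGFP (-2.93 ± 0.89, n = 4), -2.33, -1.66, -0.58 and -0.80 in VP64 (-1.34 ± 0.81, n = 4), 0.08, -0.50, -1.17 and -4.14 in DEL (-1.43 ± 1.87, n = 4), and 0.37, 0.55, -2.74 and -0.58 in Delta (-0.60 ± 1.51, n = 4). Most TALE arrays were above the EGFP arrays. VP64 replicates 1 and 2 and Delta replicate 3 lay inside the EGFP range, and DEL replicate 4 below it. With EGFP at the levels read, the mean was 3.01-fold higher in VP64, 2.83-fold in DEL and 5.04-fold in Delta (limma adjusted p = 1.00 in VP64 and DEL and adjusted p = 0.980 in Delta). Sesn1 could not be fitted with the patch correction used here. In the 2 other patch settings that allowed a fit the TALE mean minus EGFP was 0.25 and 0.82. With the patch correction used here 1 EGFP array was kept, at -0.66. It was above the mean of every TALE group, the highest of which was -0.85 in DEL. The direction thus depended on the patch setting.

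Gdf15, a secreted stress cytokine, read -1.65, -1.97 and -0.70 in EGFP (-1.44 ± 0.66, n = 3), 0.52, -0.56, -0.81 and -1.40 in VP64 (-0.56 ± 0.80, n = 4), 0.98, -0.24, 0.25 and -1.08 in DEL (-0.02 ± 0.86, n = 4), and 0.70, -1.51, 0.01 and -0.64 in Delta (-0.36 ± 0.94, n = 4). All groups overlapped EGFP. The differences of 0.69, 1.23 and 0.89 (each ± 0.65; limma adjusted p = 1.00 in VP64 and DEL and adjusted p = 0.980 in Delta) became -0.32, 0.34 and 0.09 (each ± 0.68) after patch correction. Sesn2, the second sestrin, gave -0.24, 0.26 and 0.31 after correction.

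**Figure D5:**
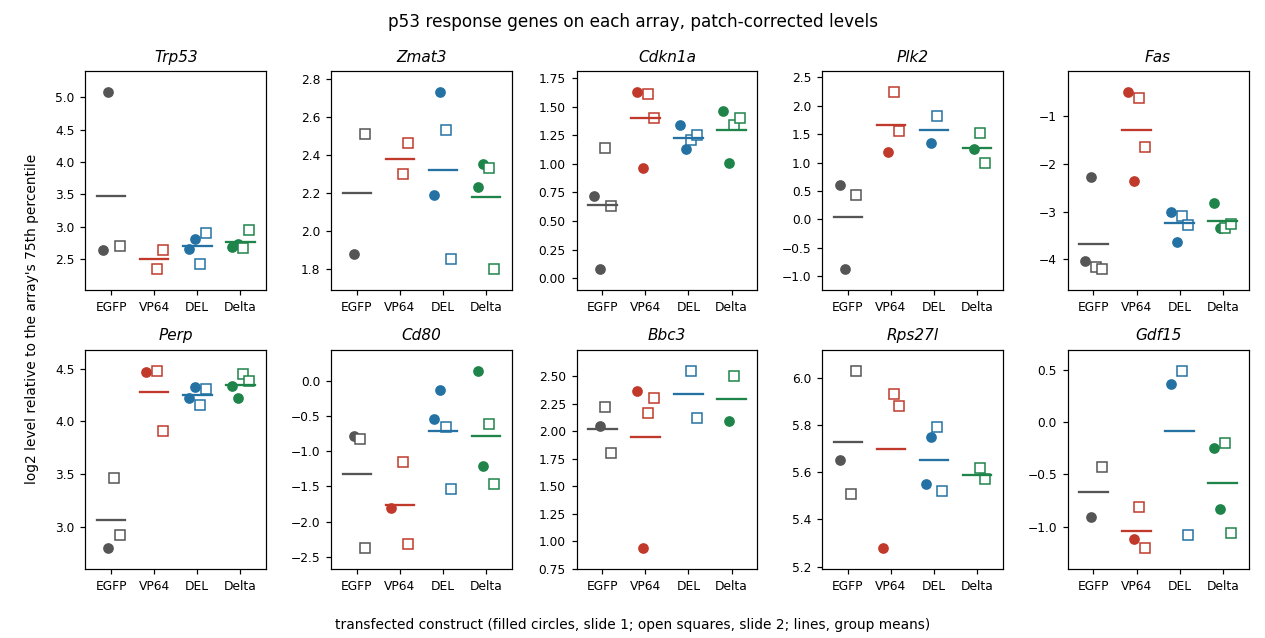
Patch-corrected log2 levels of the 10 members chosen by rule that could be fitted after correction, 1 point per array kept (filled circles slide 1, open squares slide 2) and a line at each group mean. The Perp means of VP64, DEL and Delta are 4.28, 4.25 and 4.35, beside 3.06 in EGFP, and the Fas mean is -1.29 in VP64 and between -3.67 and -3.20 elsewhere.

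Whether the 3 TALE constructs differed alike from EGFP was tested on their differences from one another, which do not involve the EGFP arrays. For Perp the patch-corrected 95% intervals were -0.80 to 0.67 for VP64 minus DEL, -0.48 to 0.45 for VP64 minus Delta and -0.83 to 0.64 for DEL minus Delta. No difference was found, and differences up to these bounds remain possible. Patch correction builds in part of the likeness between arrays, and each interval comes from the pairing with the largest p, which favours differences near 0. The intervals therefore cannot show that the constructs acted alike. The genes given here are ones with means above EGFP in all 3 groups after patch correction. For Cdkn1a the intervals were -0.52 to 0.86, -0.59 to 0.79 and -0.76 to 0.62. Each had 1 bound further from 0 than the patch-corrected Cdkn1a difference between the TALE mean and EGFP. For Apaf1 they were -0.77 to 0.47, -0.62 to 0.62 and -0.47 to 0.76. For Plk2 they were -1.42 to 1.53, -0.76 to 1.65 and -0.75 to 1.27. On uncorrected levels the Perp intervals were wider, with -1.59 to 1.20 for VP64 minus DEL. The Cdkn1a intervals are those of its first probe. Its second probe was above background on 4 VP64, 1 DEL, 3 Delta and 0 EGFP arrays. That probe differed from EGFP by 1.95 in VP64, 0.47 in DEL and 0.72 in Delta after patch correction, and was not part of this test.

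Fas is shown as the member with the smallest p in the test among the constructs, so its differences are selected ones. VP64 exceeded DEL by 1.81 on uncorrected levels (interval 0.14 to 3.48) and by 1.97 on patch-corrected levels (0.72 to 3.21), and it exceeded Delta by 1.44 (-0.23 to 3.11) and 1.91 (0.66 to 3.16). DEL minus Delta was -0.05 (-1.30 to 1.20) after patch correction. The F test among the TALE groups gave an adjusted p of 1.00 before and after correction. Past an unadjusted 0.05, Fas was the 1 member of 26 after correction (3.85%), close to the 2.91% of all genes. Before correction 0 of 31 members passed (1.45% of all genes). DEL, Delta and EGFP levels of Fas were at or near background, so those differences are compressed.

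Wider lists of the pathway had smaller median differences than the members, whose median was 0.64 for the TALE mean. Of 25 regulators of p53, 24 were measured and their median difference between the TALE mean and EGFP was 0.09 on uncorrected levels, beside 0.15 for all genes. At an unadjusted p under 0.05, 1 was higher and 0 lower (4.84% and 0.236% of all genes): Ep300, an acetyltransferase that modifies p53, at 1.85 ± 0.57 (SE). Cdkn2a, whose ARF product inhibits MDM2, was next at 1.16 ± 0.59. Of 30 other p53 targets, 26 were measured with a median of 0.36 and 1 past that threshold, Sfn, the G2 checkpoint protein 14-3-3 sigma, at 1.77 ± 0.66, with Tap1, the peptide transporter of antigen presentation, at 1.06 ± 0.48. Of 32 cell cycle genes known to fall when p53 and p21 act, 30 were measured with a median of 0.33, 3 higher and 0 lower. The smallest p-values were those of Cdc25c, a phosphatase that starts mitosis (1.98 ± 0.72), and Kif11, a spindle motor (1.90 ± 0.63). No gene of the 3 lists had a limma adjusted p under 0.05, and those named here ranged from 0.944 to 1.00.

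On patch-corrected levels the medians of these lists were 0.03 (23 regulators), 0.01 (22 other targets) and -0.05 (22 cell cycle genes), beside 0.01 for all genes and 0.21 for the p53 response genes. At an unadjusted p under 0.05 the regulators held 1 higher and 1 lower gene, the other targets 4 higher and 1 lower, and the cell cycle genes none in either direction (3.62% of all genes higher and 1.63% lower). Rpl11, a ribosomal protein that binds MDM2, had the lower mean among the regulators at -1.48 ± 0.34, and Ep300 was at 0.85 ± 0.27. On uncorrected levels Rpl11 had the other sign, at 0.21 ± 0.64. Among other targets Tap1 was at 0.96 ± 0.21 and Ak1, an adenylate kinase, at 0.86 ± 0.23 (0.13 ± 0.67 uncorrected). Cdc25c was at 0.50 ± 0.25 and Top2a, a topoisomerase of dividing cells, at 0.64 ± 0.35.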

How the data were processed

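Each array file holds the Feature Extraction output that the authors deposited for one hybridisation: its processed signal is intensity, corrected for background and spatial trend and not scaled across arrays, per the file headers (software version 11.5.1.1, array design on mm9). The deposited series values are log2, with identical quantiles in all 16 columns, and served as an alternative only. After 3671 control spots were left out, each array had 59305 spots for 55681 probes, of which 27656 had 1 gene symbol through RefSeq accessions (GRCm38.p6 gene table) and 28025 had none. The files used hold the median and not the mean spot signal, so the normexp alternative ran on median intensity, as deposited by the authors.

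The log2 of the 75th percentile over non-control spots was subtracted, spots marked as uneven or as outliers among copies were dropped, copies of a probe were averaged, and genes were kept if above background on at least 4 of 16 arrays, by their brightest probe. Of the members, Rrm2b and Dram1 failed this filter. Tests used limma 3.58.1 variance moderation in R 4.3.3 over 12777 genes and all 4 groups, on 2 averaged samples a group in 3 pairings. The largest p was taken, with Benjamini-Hochberg adjustment. A slide term was fitted only in the pairing by slide (1 with 2 and 3 with 4). In the other pairings slides cancel only where every array was read. With an array missing, a sample there is 1 array from 1 slide and slide is not accounted for. An array drops from a gene's fit only where every spot of its probe is marked, so a probe with 1 spot loses it by 1 mark. Intervals are at 95% and come from the pairing with the largest p. Patch correction subtracted the median shift of a 21 by 21 spot window (17800 spots with a median level of at least -1, at least 10 in a window), left out spots shifted by over 1, and needed 2 arrays a group, which left 11060 genes and dropped Mdm2, Ccng1, Pmaip1, Ddb2 and Sesn1.

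The members and lists were chosen with earlier results of these data known. Values on every array are given for Trp53, Mdm2, Cdkn1a and the 4 members with the smallest p in each comparison with EGFP, in their mean and among the TALE groups, and the 2 genes with the smallest p are named in each pathway list. Bounds set a dim group at the lowest signal above background of each array or at its own level, whichever is higher. They compare group means and leave out the spread between arrays. The number of arrays limits precision. Differences printed with an SE or interval are from that fit on averaged samples; for members given without either they are between group means, and the fit can differ from them where arrays are missing. A p above the threshold does not show that levels were the same.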

Additional observations from a re-analysis of the deposited data

Results flagged for a closer look

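Single arrays stood apart from the other 3 of their group for 4 named values, by Dixon's gap test at its 95% critical value; chance alone flags about 1 in 20 groups. Of 32 groups with 4 values, 1 was apart on uncorrected levels, and of 19 on patch-corrected levels 3 were. DEL replicate 3 had an uncorrected Trp53 level of 2.21, where the others lay between 3.04 and 3.20. VP64 replicate 2 had a patch-corrected Bbc3 level of 0.94, where the others lay between 2.17 and 2.37. EGFP replicate 2 had a patch-corrected Fas level of -2.28, above the others at -4.20 to -4.03, and Delta replicate 1 one of -2.83, where the others lay between -3.35 and -3.27. Without EGFP replicate 2 the unaveraged patch-corrected difference of Fas between VP64 and EGFP as measured was 2.85 in place of 2.38, with EGFP not well above background.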

How the results depend on the processing

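The counts of members called at an adjusted p under 0.05 were the same as the reported 0 in 510 of 552 values over all comparisons and settings, and 42 moved. Unaveraged patch-corrected arrays gave 2 in VP64 against EGFP and 1 in the TALE mean, and slide 1 alone gave 1 (Rps27l) in Delta against EGFP, in DEL against Delta and in the test among the TALE groups. When 1 array was left out at a time, counts ranged from 0 to 3 in VP64 against EGFP, 0 to 2 in the TALE mean, and 0 to 1 in Delta against EGFP, in VP64 against DEL, in VP64 against Delta and among the TALE groups; every count above 0 came from unaveraged patch-corrected arrays (leaving arrays out of that fit was chosen after seeing the data). The count of 0 in VP64 came without VP64 replicate 3, and that of 3 without EGFP replicate 3, VP64 replicate 2 or DEL replicate 2.

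The members' median moved by over 0.50, the SD of the members' median between arrays, in 13 of 329 values. VP64 minus DEL was -0.95 on slide 1. With patch limits or windows chosen after seeing the data, the median was 0.27 in DEL and 0.18 in Delta at a limit of 0.5, 0.31 in Delta at 1.5, and 0.35 in Delta and 0.02 in VP64 minus Delta at a window of 11. With arrays left out it ranged from 0.20 to 0.86 in DEL and 0.17 to 1.01 in Delta.

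Of 1465 differences of named members, 155 changed sign. Trp53 in VP64 was 0.38 in the pairing by slide, with arrays unaveraged and with the replicate block, 0.06 with normexp, 0.26 with quantiles, 0.22 with the percentile over spots above background on all arrays, 0.27 in the deposited series values and with marked spots kept, and 1.21 on slide 2. In the TALE mean it was -0.01 with quantiles, -0.03 with that percentile, 0.00 in the deposited values, -0.57 patch-corrected, -0.73 unaveraged patch-corrected, -0.59 and -0.57 at limits of 0.5 and 1.5, and -0.51 and -0.56 at windows of 11 and 41. The same patch settings gave -0.57, -0.73, -0.60, -0.57, -0.47 and -0.55 in DEL and -0.51, -0.67, -0.51, -0.51, -0.43 and -0.53 in Delta, and slide 1 gave -0.92 and -1.04. With arrays left out Trp53 ranged from -1.38 to 0.62 in VP64, -1.20 to 0.58 in DEL, -1.13 to 0.68 in Delta and -1.22 to 0.63 in the mean. Zmat3 in Delta was -0.02 in every patch setting but the windows, and with arrays left out ranged from -0.09 to 4.05, and in DEL from -0.04 to 4.14. Mdm2 in Delta ranged from -0.07 to 0.86, and Cd80 in DEL was -0.03 at a limit of 0.5. The cause was not tested. Over all settings the TALE mean of Perp stayed between 1.06 and 2.54 and that of Cdkn1a between 0.41 and 1.49, and Fas in VP64 between 0.71 and 3.00.

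Deviations of same-numbered arrays, which share a slide and a row of it, correlated above 0.1 in 13 of 24 pairs (-0.103 to 0.385, with all pairs of replicate 2 at 0.234 or more), beside 10 of 72 pairs of different number. Since not every pair was above 0.1, the numbers were not taken to pair samples. The replicate block gave 0 members called in all 8 comparisons. Dim probes (Fas, Sesn1, Cd80, Eda2r) are limited by background, and members with 1 spot (Perp, Mdm2) have no copy to check an array.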
